A study of Bos taurus with 25 samples.

Results

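Periostin (POSTN), lysyl oxidase (LOX), lysyl oxidase like 4 (LOXL4), the fibrillar collagen chains COL1A1, COL1A2 and COL3A1, osteonectin (SPARC), fibronectin (FN1) and decorin (DCN) were followed in the liver and the mammary gland of lactating cows given vitamins B9 and B12. The 9 genes were chosen by name, as genes of the collagen matrix, and also by their values, because POSTN was higher in the mammary gland with B9 and LOXL4 was higher in the liver with both vitamins. They were measured by 54 probes, of 43653 probes on the array that are not controls. Those 43653 probes carry 27841 different names, which are current gene symbols or, where none was paired, the names on the array. All 9 genes were found. FN1 had 13 probes, COL3A1 10, DCN 9, COL1A2 6, SPARC 6, COL1A1 5 and POSTN 3, and LOX and LOXL4 had 1 each.

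Fibrillar collagens are secreted as procollagen chains that assemble into triple helices and then into fibrils, which give connective tissue its tensile strength. Lysyl oxidases oxidise lysine residues of collagen and elastin so that the fibres become crosslinked. Periostin, osteonectin and decorin bind collagen and shape the fibrils, and fibronectin forms a network on which collagen is laid down. In the liver, stellate cells make most of the fibrillar collagen and hepatocytes secrete plasma fibronectin, while in the mammary gland fibroblasts of the stroma surround the milk secreting alveoli.

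Holstein cows received weekly 5 mL intramuscular injections of saline (Ctl), of folic acid (B9, 320 mg), of vitamin B12 (B12, 10 mg) or of both (B9_B12), and biopsies were taken 64 ± 3 days after calving. The liver gave 12 arrays (3 Ctl, 3 B9, 4 B12 and 2 B9_B12) and the mammary gland 13 arrays (3 Ctl, 3 B9, 4 B12 and 3 B9_B12), from 13 cows of which 12 gave both tissues. Each 1-colour array held RNA of 1 biopsy of 1 cow. Values are log2 intensities after background correction and normalization within each tissue, and differences are on the same log2 scale, so that 1 unit is 2-fold. Each gene is represented by its brightest probe in the tissue unless stated otherwise, and levels of different probes cannot be set against each other.

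Between 71.2% and 84.2% of the probes were well above background on the liver arrays, and between 64.4% and 76.5% on the mammary arrays. The arrays of a tissue resembled each other, with median correlations to the others of 0.972 to 0.992 for the liver and 0.986 to 0.991 for the mammary gland. The liver arrays of cow 57 (B9, 0.972) and cow 32 (B9_B12, 0.973) were the lowest, and the next liver array was at 0.989. The differences of the 9 genes with B9_B12 in the liver, and those of POSTN and LOXL4 with B9 there, are given with and without these arrays. The arrays lay on 8 slides, and 3 liver arrays, of 1 Ctl, 1 B12 and 1 B9_B12 cow, were scanned on another day than the rest. The labels of the tissues were checked by markers. All 6 hepatocyte markers were higher in the liver, by 5.79 to 11.2, and 4 of 6 markers of milk secreting epithelium were higher in the mammary gland, the exceptions being the keratins KRT8 and KRT18.

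The arrays give no probe sequences in the values used here. For POSTN and LOXL4, the genes whose values chose the set, primers designed for quantitative PCR are shown, since they name the bovine transcripts the study followed up.
POSTN forward: cctgattctgccaaacaagttattg
LOXL4 forward: caggcactaccacagcattgag
LOXL4 reverse: catagcgcctttgcattcct

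POSTN, a secreted protein that binds collagen and integrins, had a lower mean in the mammary gland of control cows than in each treated group. The control arrays measured 7.002, 7.09 and 7.29. The B9 arrays measured 8.19, 8.47 and 8.54, so that each of them lay above every control. The mean was 8.40 ± 0.18 (SD, n = 3) with B9 against 7.13 ± 0.15 (SD, n = 3) in the controls, a difference of 1.27 (SE 0.27). The other 2 probes of POSTN differed by 0.61 and 0.73 in the same direction. This comparison was used to choose POSTN, so its values describe these cows and were not tested. The 1 pair of a B9 and a control cow on the same slide differed by 1.19.

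With B12, POSTN in the mammary gland measured 7.45, 7.69, 8.01 and 8.67 (mean 7.96 ± 0.53, SD, n = 4). All 4 values lay above the 3 controls, the difference of the means was 0.83, and the other 2 probes differed by 0.42 and 0.46. With B9_B12 the values were 7.29, 7.74 and 7.96 (mean 7.66 ± 0.34, SD, n = 3), a difference of 0.54, and the lowest of them equalled the highest control to 2 decimals. The order of the means was thus Ctl, B9_B12, B12 and B9. The ranges of B9_B12 and B12 overlapped, as did those of B12 and B9. These comparisons share the 3 control arrays with the one that chose POSTN, and no p-value is given for them. Without cow 52, the highest B12 array, the difference of B12 from Ctl was 0.59.

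The comparison of B9_B12 with B12 used no control array and shares none with the choice of POSTN. It asks whether adding B9 to B12 went with a change. POSTN was lower by 0.29 on the mean of the B9_B12 arrays (log2 difference −0.29, SE 0.25), and limma's adjusted p was 0.995. The other 2 probes gave −0.21 and −0.18. Without cow 52 the 3 probes gave −0.11 to −0.05. Within the 2 slides that held both groups the differences were −0.93 and −0.05. A difference between the 2 groups was not detectable with 3 and 4 cows.

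**Figure D1:**
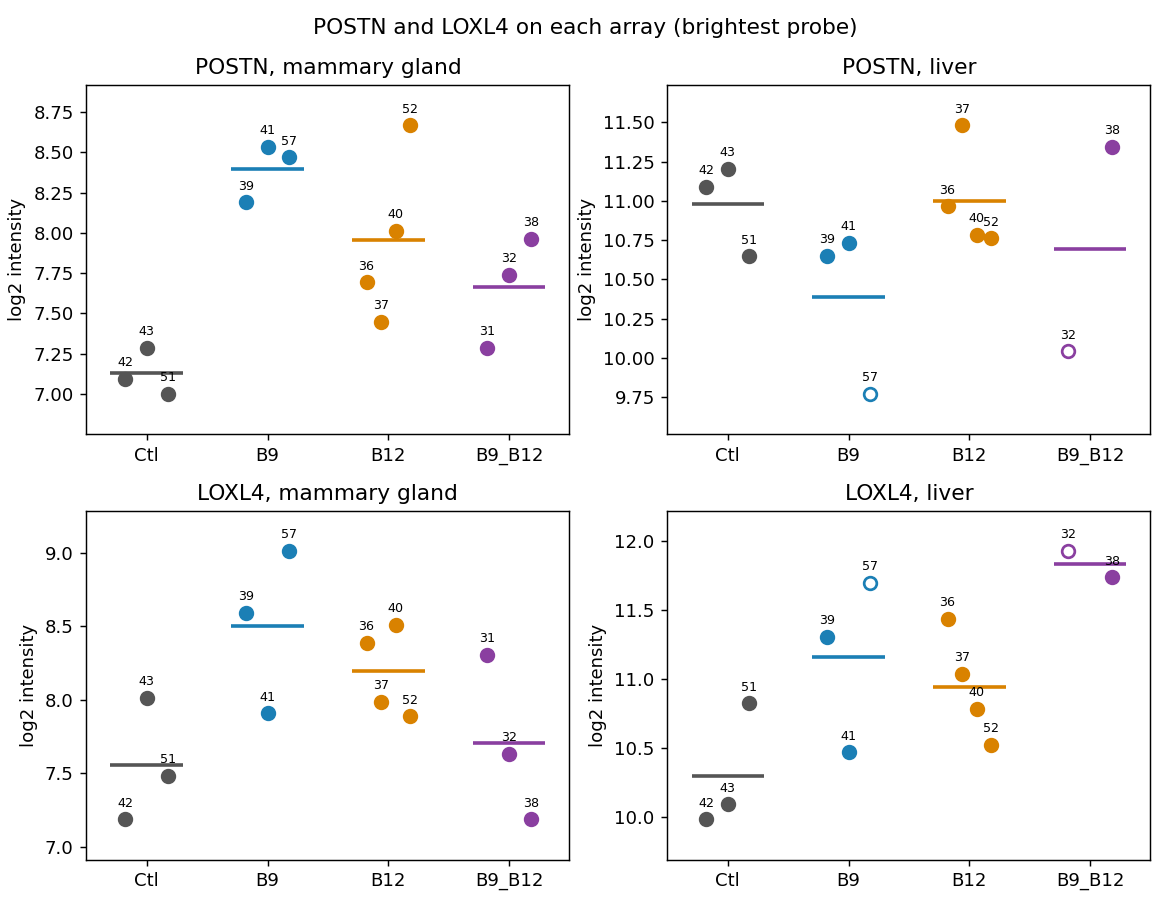
Log2 intensity of POSTN and LOXL4 (brightest probe) on each array, in panels by gene and tissue with the treatment on the x axis. Points are single cows, horizontal bars are group means, open circles are the liver arrays of cows 57 and 32, and the y axes differ between panels. POSTN in the mammary gland sits at 7.002 to 7.29 in Ctl and at 8.19 to 8.54 in B9, and LOXL4 in the liver at 9.98 to 10.83 in Ctl and at 11.74 and 11.93 in B9_B12.

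In the liver, POSTN showed no such order. The control arrays measured 10.65, 11.09 and 11.20, the B9 arrays 9.77, 10.65 and 10.73, the B12 arrays 10.76, 10.78, 10.97 and 11.48, and the B9_B12 arrays 10.04 and 11.34. The 2 lowest of the 12 values, 9.77 and 10.04, came from cows 57 and 32, whose arrays correlated least with the rest. The difference of B9 from Ctl was −0.59 (limma's adjusted p = 0.906) and −0.29 without cow 57, and the other 2 probes gave −0.02 and 0.07. That of B12 was 0.02. The difference of B9_B12, described only, was −0.29 with cow 32 and 0.36 without it, and the other 2 probes gave 0.20 and 0.23. Without cow 38, the other B9_B12 array, the brightest probe gave −0.94 and the other 2 −0.24 and −0.11. Each of these drops leaves 1 array with both vitamins. The part of the array quality of cows 57 and 32 in the values was not tested.

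LOXL4, a member of the lysyl oxidase family with the same catalytic domain as LOX, was higher in the liver of treated cows. The control arrays measured 9.98, 10.09 and 10.83. The B9_B12 arrays measured 11.74 and 11.93, above every control and above every other liver array. The means were 11.83 ± 0.14 (SD, n = 2) and 10.30 ± 0.46 (SD, n = 3), a difference of 1.53 (SE 0.38). This comparison was used to choose LOXL4 and was not tested. The difference was 1.44 without cow 32, which leaves 1 array with both vitamins, and 1.76 and 1.84 within the 2 slides that held both groups, the second of which was scanned on the other day.

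LOXL4 in the liver lay between these groups with a single vitamin. The B9 arrays measured 10.47, 11.31 and 11.70 (mean 11.16 ± 0.63, SD, n = 3), a difference of 0.86 from Ctl, or 0.59 without cow 57. The B12 arrays measured 10.52, 10.78, 11.04 and 11.44 (mean 10.95 ± 0.39, SD, n = 4), a difference of 0.65. Both ranges overlapped that of the controls, whose highest array was at 10.83, and overlapped each other. The order of the means was Ctl, B12, B9 and B9_B12. The 3 comparisons share the control arrays, and no p-value is given for LOXL4 in them.

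In the mammary gland, LOXL4 measured 7.19, 7.48 and 8.01 in Ctl, 7.91, 8.59 and 9.01 in B9, 7.89, 7.98, 8.39 and 8.51 in B12, and 7.19, 7.63 and 8.31 in B9_B12. Every treated group overlapped the controls. The difference from Ctl was 0.94 for B9, which is given as a description, 0.63 for B12 (SE 0.32, limma's adjusted p = 1.00) and 0.15 for B9_B12. With single arrays left out, the B12 difference ran from 0.45 to 0.86. That of B9_B12 ran from −0.15 without cow 31 to 0.41 without cow 38, and was −0.04 and 0.38 without the control cows 42 and 43. The B12 difference of LOXL4 was higher in the liver than in the mammary gland by 0.012. This is given as a description, since the liver controls also chose LOXL4. The B9 and B9_B12 differences were not tested between the tissues.

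For LOX, the founding member of the family, the group means lay close together. In the liver its group means ran from 7.18 in Ctl to 7.40 in B12, with a difference of B9_B12 from Ctl of 0.11, or 0.21 without cow 32, and in the mammary gland from 7.19 in Ctl to 7.44 in B12. Its highest mammary value, 7.80, came from cow 52 of the B12 group. In neither tissue did any treated group lie wholly above the controls.

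The collagen chains and SPARC were described for B9_B12 in the liver, the comparison that chose LOXL4. The brightest COL1A2 probe measured 9.35, 9.55 and 9.99 in Ctl and 10.61 and 10.99 in B9_B12, a difference of 1.17, or 0.97 without cow 32. Both B9_B12 arrays lay above all controls in 4 of the 6 COL1A2 probes, and the 6 differences ran from 0.03 to 1.17. COL1A2 encodes the partner chain of COL1A1 in type I collagen, whose 5 probes differed by −0.02 to 1.19 with both arrays above all controls in 2 of them. COL3A1, the chain of type III collagen, gave −0.17 to 0.84 in 10 probes and SPARC, a collagen chaperone outside the cell, 0.29 to 0.46 in 6 probes, and in none of these did both arrays lie above all controls. DCN, a small proteoglycan on collagen fibrils, gave 0.07 to 0.94 in 9 probes. FN1 ran the other way in 9 of its 13 probes, 4 of them with both arrays below all controls (9.86% of all probes were), and its differences ran from −0.58 to 0.25.

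Without cow 32, which leaves 1 array with both vitamins, the COL1A2 probes gave −0.02 to 0.97, those of COL1A1 −0.18 to 0.76, those of COL3A1 −0.15 to 0.68 and those of SPARC 0.07 to 0.19. The DCN probes then gave 0.06 to 0.39 and those of FN1 −0.46 to 0.04, with 10 of 13 lower. The SPARC differences were thus closer to 0 without this array.

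In all, 8 of the 54 probes had both B9_B12 liver arrays above the 3 controls, where 12% of all probes on the array did. They were 4 of COL1A2, 2 of COL1A1, 1 of DCN and that of LOXL4. The median difference of the 54 probes was 0.22, against 0.02 for all probes. Without cow 32 the median was 0.15, and the remaining B9_B12 array lay above the 3 controls in 12 of the 54 probes, where it did in 22.1% of all probes. Without cow 38 the count was 24 (42.4% of all probes) and the median 0.21. The controls moved the count as much, to 29 (18.7% of all probes) with a median of 0.37 without cow 42 and to 10 (17.4% of all probes) with a median of 0.13 without cow 51. The mean difference over the probes of a gene was 0.76 for COL1A2, 0.48 for COL1A1 and 0.40 for SPARC, and without cow 32 it was 0.56, 0.28 and 0.13. The 7 fibroblast and stellate cell markers had mean levels of 9.12 and 9.21 on these arrays and of 8.66 to 9.07 in the controls, with 6 of 7 higher and a median difference of 0.25. The milk secreting epithelium markers were at 10.64 and 10.68 against 9.97 to 10.2, with 5 of 6 higher, and no marker of either list was at 0. Without cow 32, 6 of 7 and 4 of 6 of these markers were higher, with medians of 0.25 and 1.01. Myoepithelial markers were higher in 5 of 6 (median 0.35, levels of 9.96 and 10.13 against 9.53 to 9.82), endothelial markers in 3 of 4 (0.24, levels of 9.87 and 10.10 against 9.57 to 9.79), and macrophage markers in 5 of 6 (0.20, levels of 13.01 and 13.37 against 12.90 to 13.07). Without cow 32 these 3 medians were 0.19, 0.01 and 0.06. Some myoepithelial markers were near background in the liver. By the probes used between the tissues, OXTR was well above background on 0 of 12 liver arrays and KRT5 on 8. The part of the markers in the result was not tested, and in biopsies more cells of a type and more RNA per cell cannot be told apart.

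In the mammary gland with B9, the comparison that chose POSTN, 4 of the 54 probes had all 3 B9 arrays above the 3 controls, where 3.84% of all probes did. They were the 3 of POSTN and 1 of FN1. All 3 B9 arrays lay below the controls in 1 of the 54 probes (3.17% of all probes). The median difference of the 54 probes was 0.12. Without cow 57 the count was 26 (9.51% of all probes) and the median 0.36, while without the control cow 51 the count was 4 (6.91% of all probes) and the median 0.02, with 29 probes higher and 25 lower. The mean level of the 6 hepatocyte markers ran from 8.03 to 9.56 on the B9 arrays and from 7.87 to 8.27 on the control arrays, with 6 of 6 higher and a median difference of 0.41, or 4 of 6 and 0.02 without cow 57. By the probes used between the tissues, FGB, a hepatocyte marker, was well above background on only 4 mammary arrays. The macrophage markers were higher in 2 of 6, with a median of −0.20. Markers of milk secreting epithelium were higher in 0 of 6 (median −0.03, lowest −1.06) and myoepithelial markers in 5 of 6 (0.15). Fibroblast and stellate cell markers were higher in 5 of 7 (0.02), endothelial in 2 of 4 (0.06) and adipocyte in 2 of 3 (0.01). The part of the markers in the POSTN values was not tested. The brightest mammary probes of COL1A1, COL1A2, COL3A1, SPARC, FN1, LOX and DCN all had B9 and control ranges that overlapped.

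**Figure D2:**
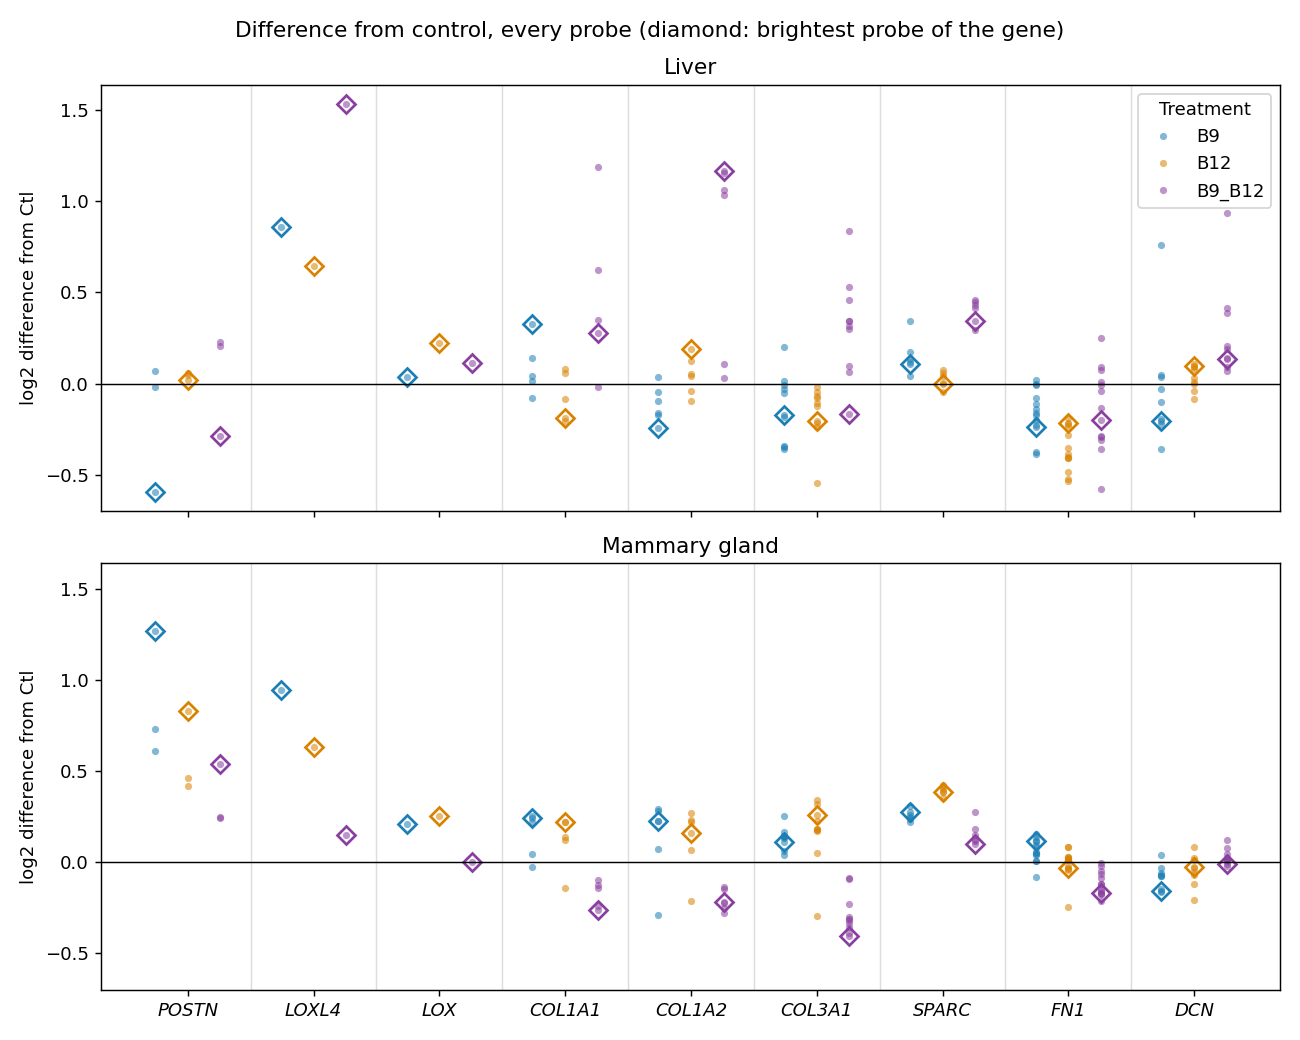
Log2 difference from the control cows of the tissue for each of the 54 probes, by gene and comparison. Small points are single probes and diamonds are the brightest probe of a gene. The LOXL4 and COL1A2 probes reach 1.53 and 1.17 in the liver with B9_B12, the POSTN probes 1.27 in the mammary gland with B9, and the 13 FN1 probes in the liver with B12 all lie below 0.

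The remaining treatment comparisons were tested by limma over all probes, and a call needed both an adjusted p no higher than 0.05 and a 2-fold difference. No member probe was called in any of them. In the liver with B9, 0 of 53 tested member probes were called (0% of all probes), 1 had an unadjusted p under 0.05 (3.52% of all probes did), and Cyber-T, the Bayesian test of the study's methods, called 0 of them (0.0115% of all probes). The probe with the smallest p was one of DCN (log2 difference −0.36, SE 0.12, limma's adjusted p = 0.906, range −0.43 to −0.26 with single arrays left out). With the slide as a fixed block it differed by −0.58 (limma's adjusted p = 0.164). FN1 was lower with B9 in 12 of 13 probes, against the same controls as with B12, and the 13 differences ran from −0.39 to 0.02. Without the control cow 51 it was lower in 7 of 13.

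In the liver with B12, FN1 had 13 of 13 probes lower than in the controls, by −0.53 to −0.19. Of the 53 tested member probes, 0 were called (0.00229% of all probes) and 0 by Cyber-T (0.0985% of all probes), and 4 had an unadjusted p under 0.05 (2.11% of all probes). All 4 belong to FN1 and are read from the same gene, so they are not independent. The one with the smallest p differed by −0.41 (SE 0.14, limma's adjusted p = 1), and by −0.52 to −0.26 with single arrays left out, −0.26 being the value without the control cow 51. On the brightest FN1 probe the controls measured 15.97, 16.03 and 16.04 and the B12 arrays 15.68, 15.70, 15.82 and 15.97. The highest B12 array thus reached the lowest control. The 13 probes stayed lower with any 1 array left out. The COL3A1 probes were also all lower, by −0.55 to −0.02, with 4 to 10 of 10 lower when single arrays were left out. On the same arrays 6 of 6 markers of milk secreting epithelium were higher with B12, with a median difference of 1.72 and mean levels of 9.61 to 12.8 against 9.97 to 10.2. The endothelial markers were higher in 0 of 4, with a median of −0.22 and mean levels of 9.32 to 9.58 against 9.57 to 9.79. No marker of either list was at 0, and their part in the FN1 values was not tested.

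In the mammary gland with B12, SPARC had 6 of 6 probes higher, by 0.35 to 0.42. On its brightest probe the controls measured 12.85, 12.93 and 13.18 and the B12 arrays 12.97, 13.15, 13.37 and 13.98, so the groups overlapped. The difference of this probe was 0.38, and 0.18 without cow 52. Of 51 tested member probes 0 were called (0% of all probes), 0 by Cyber-T (0.0206% of all probes), and 1, of SPARC, had an unadjusted p under 0.05 (2.29% of all probes). Its difference was 0.42 (SE 0.19, limma's adjusted p = 1.00), or 0.28 without cow 52. The fibroblast and stellate cell markers were higher in 7 of 7 with B12, with a median of 0.17 and mean levels of 9.09 to 9.42 against 9.03 to 9.22. The endothelial markers were higher in 4 of 4, with a median of 0.17 and levels of 8.19 to 8.48 against 8.07 to 8.25. Their part in the SPARC values was not tested.

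With B9_B12 in the mammary gland, the collagens and FN1 had lower means than the controls, by amounts that moved with single cows. All probes of COL1A1 (−0.26 to −0.10), COL1A2 (−0.28 to −0.13), COL3A1 (−0.41 to −0.09) and FN1 (−0.21 to −0.00) were lower. Without cow 32 the brightest probes of COL3A1, COL1A1, COL1A2 and FN1 differed by −0.05, 0.06, −0.09 and 0.23 in place of −0.41, −0.26, −0.22 and −0.17. Lower means then remained in 6 of 10 COL3A1, 4 of 5 COL1A1, 4 of 6 COL1A2 and 2 of 13 FN1 probes. Without cow 31 the same brightest probes differed by −0.78, −0.67, −0.48 and −0.38. None of the 51 tested probes was called (0% of all probes), 0 were called by Cyber-T (0.0137% of all probes), and 0 had an unadjusted p under 0.05 (1.95% of all probes). The brightest COL3A1 probe measured 11.22, 11.60 and 11.99 in Ctl and 10.49, 11.17 and 11.93 in B9_B12, so the ranges overlapped. On these arrays macrophage markers were higher in 0 of 6 (median −0.18), fibroblast and stellate cell markers in 3 of 7 (−0.01) and hepatocyte markers in 6 of 6 (0.16). Endothelial markers were higher in 3 of 4 (0.21) and myoepithelial markers in 5 of 6 (0.20). The part of the markers in these differences was not tested.

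Against B12 alone, the B9_B12 mammary arrays were lower in 42 of the 54 probes, with a median of −0.20 against −0.00 for all probes. The median was −0.07 without cow 52 and −0.08 without cow 32, with 37 and 35 probes lower. No probe was called (0% of all probes), Cyber-T called 0 (0.016% of all probes), and 0 had an unadjusted p under 0.05 (4.66% of all probes). The brightest COL3A1 probe differed by −0.66 (SE 0.48), that of COL1A1 by −0.48 (SE 0.39), that of LOXL4 by −0.48 (SE 0.32) and that of LOX by −0.25 (SE 0.13), each with limma's adjusted p of 0.995. Without cow 52 these were −0.30, −0.21, −0.58 and −0.13, and COL1A2 gave −0.08 in place of −0.38. Without cow 31 the first 3 were −1.03, −0.89 and −0.78, and LOXL4 was −0.22 without cow 38. The fibroblast and stellate cell markers were higher in 0 of 7, with a median of −0.18 and mean levels of 8.75 to 9.44 with B9_B12 against 9.09 to 9.42 with B12. The macrophage markers were higher in 1 of 6, with a median of −0.27 and mean levels of 9.41 to 9.46 against 9.32 to 9.98. Their part in the differences was not tested.

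The B12 effect was compared between the tissues as an interaction in 1 fit of all arrays. No probe of LOX, the collagens, SPARC, FN1 or DCN was called (0% of all probes). The probes of POSTN and LOXL4 are not read here, since control arrays of this comparison also chose those genes. Over the 54 probes, 3 had an unadjusted p under 0.05 (1.89% of all probes). All 3 were probes of FN1. The one with the smallest p had a B12 effect that was lower in the liver than in the mammary gland (difference −0.37, SE 0.15, limma's adjusted p = 1, and −0.22 without the control cow 51 of the liver). Interactions with B9 and with B9_B12 were not tested, since those comparisons chose the genes.

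The collagens differed more between cows of the same group in the mammary gland than most genes did. The SD within groups was 0.69 for COL3A1 and 0.56 for COL1A1, at the 98.8th and 97.5th percentile of the probes well above background, whose median SD was 0.16. In the B12 group, cow 52 measured 12.95 for COL3A1 where the other 3 lay at 11.46 to 11.55, and 11.09 for COL1A1 where the other 3 lay at 9.96 to 10.10. The same cow gave the highest mammary values of COL1A2, SPARC and LOX. Cows 32 (B9_B12) and 57 (B9) gave the lowest mammary values of COL3A1, at 10.49 and 10.76.

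**Figure D3:**
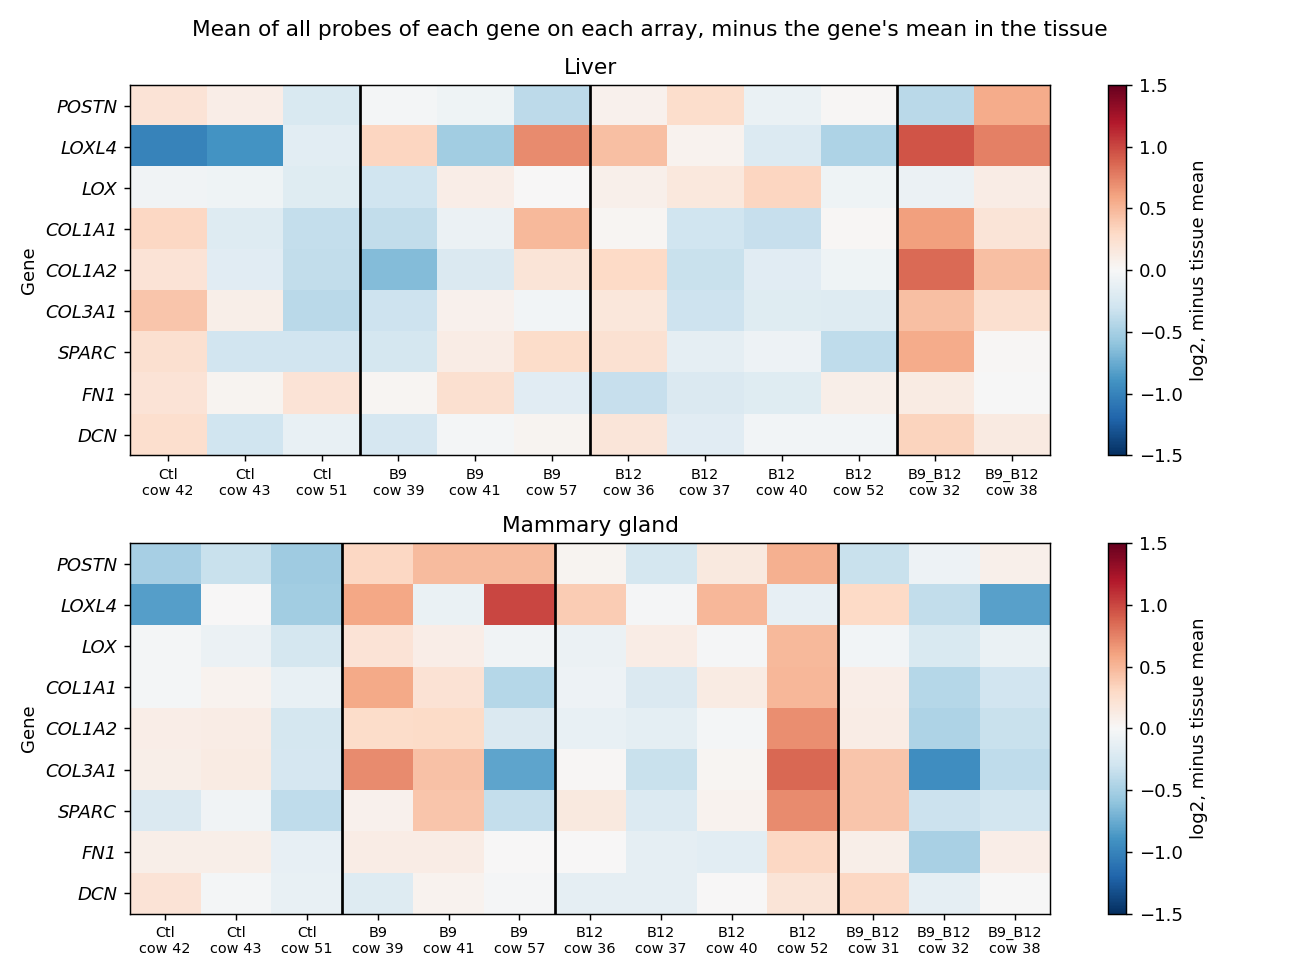
Log2 intensity of the 9 genes (mean over the probes of a gene) on each array, less the mean of the gene in that tissue, with the cows ordered by treatment in 1 panel for each tissue. The colour gives the difference from the tissue mean. In the mammary gland the collagens, SPARC and LOX of cow 52 lie above their means together, and those of cow 32 below.

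Over the 13 mammary arrays the levels of the genes were set against that of COL1A1. Pearson's r was 0.95 for COL3A1 (Spearman's coefficient 0.95), 0.84 for COL1A2 (Spearman 0.82), 0.82 for SPARC (Spearman 0.83), 0.79 for LOX (Spearman 0.76) and 0.78 for FN1 (Spearman 0.82). The permutation p was 1e-05 for COL3A1, the smallest that the permutations can give (adjusted 0.00016, Spearman p = 2e-05). It was 0.00037 for COL1A2 (adjusted 0.00197, Spearman p = 0.00104), 0.00035 for SPARC (adjusted 0.00197, Spearman p = 0.00082), 0.00125 for LOX (adjusted 0.004, Spearman p = 0.00388) and 0.00112 for FN1 (adjusted 0.004, Spearman p = 0.00112), each over 16 relations in the 2 tissues. DCN (r = 0.38) did not pass, with an adjusted permutation p of 0.409. POSTN (r = 0.27) and LOXL4 (r = 0.15), whose values over these cows chose the set, are given as a description.

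Without the 2 arrays farthest from the median of COL1A1, r was 0.89 for COL3A1, 0.71 for COL1A2, 0.71 for SPARC, 0.60 for LOX and 0.64 for FN1, and only that of COL3A1 still passed the adjusted threshold. With the mean over the probes of a gene, r without the 2 farthest arrays was 0.96 for COL3A1, 0.87 for COL1A2 and 0.79 for SPARC, where it was 0.96, 0.89 and 0.76 over all arrays. It was 0.41 for LOX and 0.48 for FN1, where it was 0.73 and 0.63, so that the relations of LOX and FN1 rested in part on those 2 arrays. Taken as deviations from the treatment means, r was 0.95 for COL3A1, 0.81 for COL1A2, 0.84 for SPARC, 0.80 for LOX and 0.79 for FN1. These values share the arrays, and the part of the biopsies' makeup in them was not tested.

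In the liver r with the brightest COL1A1 probe lay between −0.40 and 0.30, and none of the relations passed the threshold. That probe had a median correlation of 0.43 with the other 4 COL1A1 probes, whose own median correlations ran from 0.67 to 0.86. With the mean over the probes of a gene, a choice made after these values were seen, r over the 12 liver arrays was 0.88 for COL1A2, 0.81 for SPARC, 0.80 for DCN and 0.77 for COL3A1. Spearman's coefficient was 0.90, 0.74, 0.83 and 0.81 in the same order. The permutation p of r were 0.0001, 0.0021, 0.00185 and 0.00384 (adjusted 0.000533, 0.00672, 0.00672 and 0.00768), and those of Spearman's coefficient 0.00016, 0.00809, 0.0016 and 0.00217. Without the 2 farthest arrays r was 0.86, 0.61, 0.81 and 0.87. LOX had r = −0.03 and FN1 r = 0.08 in the liver, neither past the threshold.

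**Figure D4:**
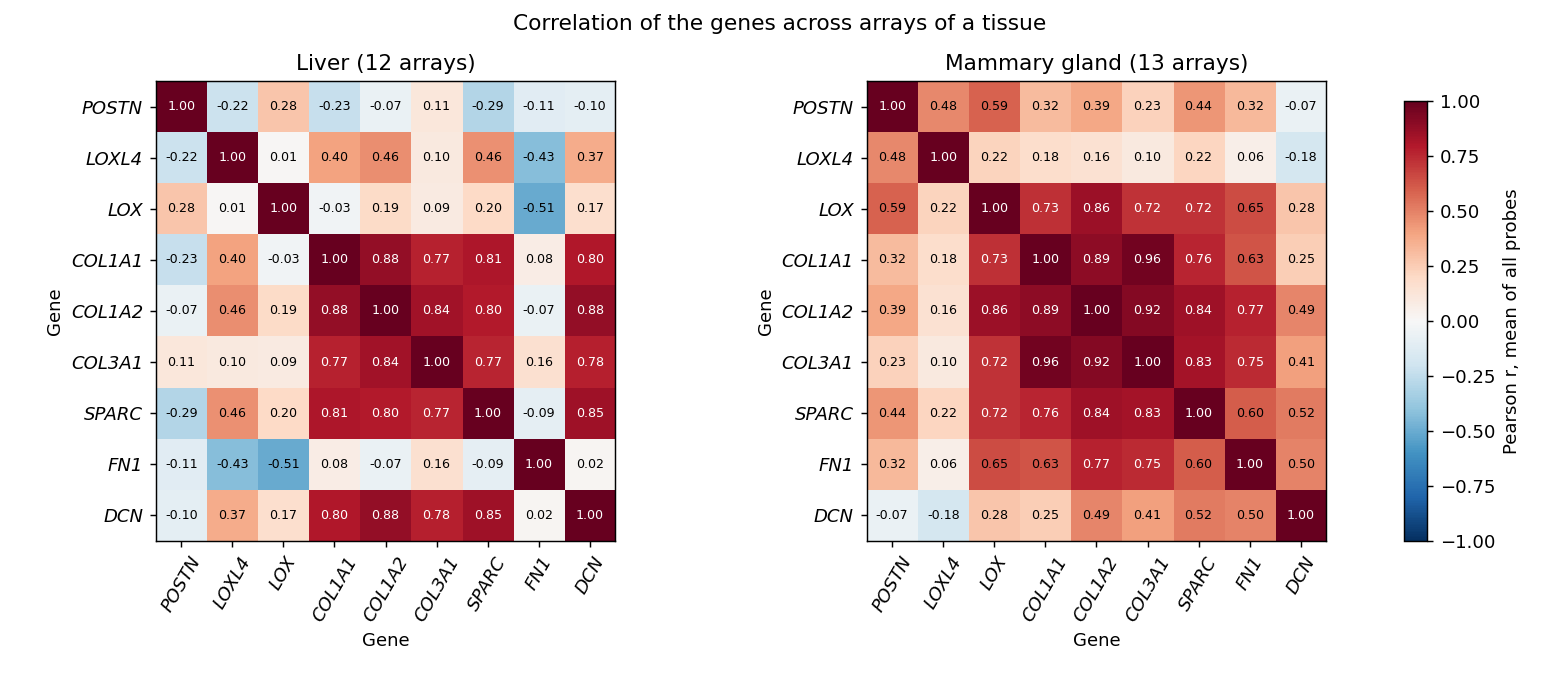
Pearson's r between the genes over the arrays of a tissue, 12 of liver and 13 of mammary gland, with the mean over the probes of each gene. The colour and the number in each cell give r. The collagens and SPARC form a block of high values in both tissues, which LOX (r of 0.72 to 0.86 with the block) and FN1 (0.60 to 0.77) join in the mammary gland and DCN in the liver.

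The genes whose levels followed POSTN most closely over the 13 mammary arrays, of 9204 genes compared, were INHBA (r = 0.79), the activin beta A chain, NECAP2 (0.77), GRINA (0.74), UQCRFS1 (0.73), an iron-sulfur subunit of the respiratory chain, and the protease CTSV (0.72). Among the 9 genes LOX was nearest, at 0.61 and rank 57. For LOXL4 over the 12 liver arrays, of 9674 genes, they were PYCR1 (0.95), which makes proline, FANCC (0.90), GOLT1A (0.89), TM2D2 (0.88) and DDOST (0.88), a subunit of the complex that attaches sugars to new proteins. Without cows 57 and 32, r was 0.97, 0.91, 0.83, 0.83 and 0.81 in the same order. The genes named first in each list were picked as the highest of many r over few arrays, which by itself favours high values, and none was tested. These r are a description over arrays that include the treatment differences.

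The widest differences lay between the tissues, which no choice of genes had used. Here the arrays of both tissues were normalized together. FN1 was higher in the liver in 13 of 13 probes, by 2.41 to 4.35. On its brightest probe the 12 liver arrays ran from 14.44 to 15.15 (median 14.92) and the 13 mammary arrays from 9.86 to 11.33 (median 10.89), a difference of 4.12 (SE 0.12, limma's adjusted p = 6.02e-17). The tissues did not overlap.

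POSTN and LOXL4 were also higher in the liver. POSTN had a mean of 10.06 ± 0.46 (SD, n = 12) in the liver, with a lowest array of 9.13, and ran from 7.37 to 9.27 (mean 8.30 ± 0.64, SD, n = 13) in the mammary gland, a difference of 1.76 (SE 0.17, limma's adjusted p = 1.23e-08), and its 3 probes gave 1.41 to 1.76. LOXL4 ran from 9.32 to 11.13 (median 10.19) and from 7.59 to 9.65 (median 8.52), a difference of 1.80 (SE 0.18, limma's adjusted p = 3.76e-08). Single arrays of the tissues overlapped in both genes.

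The collagens, SPARC and DCN were higher in the mammary gland under this normalization, and the brightest probes of COL1A1, COL3A1 and DCN turned when each tissue was normalized by itself, which leaves the median of all probes higher in the liver by 0.38. In that case SPARC differed by −0.07 (limma's adjusted p = 0.601), 2 of its 6 probes turned, and COL1A2 differed by −1.63. COL1A2 ran from 8.15 to 10.24 in the liver and from 11.82 to 13.51 in the mammary gland, so that the tissues did not overlap (difference −3.15, SE 0.19, limma's adjusted p = 7.24e-12). The brightest probes of SPARC (−1.92, SE 0.13), DCN (−1.74, SE 0.09) and COL3A1 (−1.55, SE 0.19) also passed. COL1A1 differed by −0.49 (SE 0.18) on its brightest probe, with an adjusted p of 0.0267 by limma (at most 0.0601 with single arrays left out) and a change under 2-fold, while its 5 probes gave −2.76 to −0.34. That probe had the lowest median correlation with the other COL1A1 probes in both tissues (0.43 in the liver, 0.35 in the mammary gland). With the mean of all its probes COL1A1 differed by −1.43 (limma's adjusted p = 4.57e-09), past 2-fold. LOX was lower in the liver by less than 2-fold (difference −0.78, SE 0.07, limma's adjusted p = 4.52e-09). The difference passed 2-fold with an offset of 0 (−1.15), without background correction (−1.01), with 75th percentile scaling (−1.22) and with the processed signal (−1.52). It differed by −0.04 (limma's adjusted p = 0.570) when each tissue was normalized by itself.

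By probes, 17 of 54 were called higher in the liver (8.79% of all probes) and 29 higher in the mammary gland (9.89% of all probes), 46 in all. Those higher in the mammary gland were 5 of 6 of COL1A2, 9 of 10 of COL3A1, 8 of 9 of DCN, 4 of 6 of SPARC and 3 of 5 of COL1A1. The all-probe median was −0.03 under this normalization and −0.80 when the arrays were scaled by the 75th percentile, so that the share of all calls that were higher in the liver was 47.1% and 19.3%. It was 90.2% when each tissue was normalized by itself, with a median of 0.38. Taken relative to the all-probe median, every probe kept its side under these 3 scalings and under the processed signal (median −0.48, share 31.6%), except 1 probe each of COL1A1, COL3A1 and DCN.

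**Figure D5:**
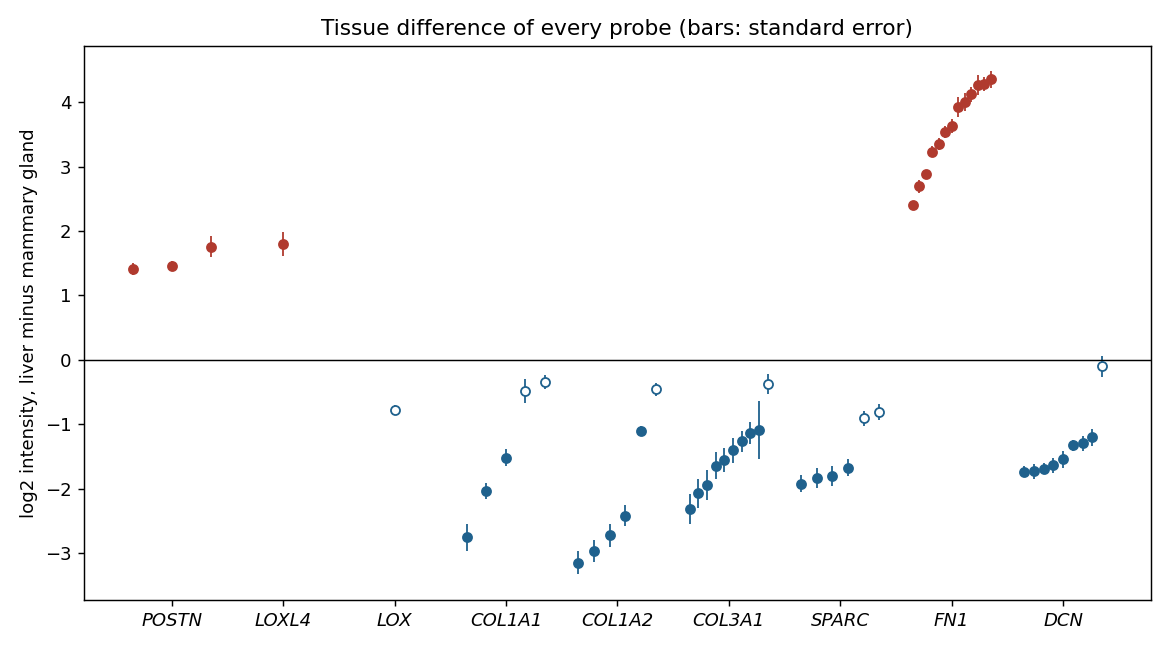
Log2 difference, liver minus mammary gland, of each of the 54 probes by gene, with error bars of 1 SE. Filled points were called by limma and open points were not. All FN1, POSTN and LOXL4 probes lie above 0, from 1.41 to 4.35, and all collagen, SPARC, DCN and LOX probes lie below 0, down to −3.15, under the normalization of both tissues together (that of each tissue by itself turned some COL1A1, COL3A1, SPARC and DCN probes).

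Other genes of the matrix, from lists of known members, were read by their brightest probe, where 12.3% of all named genes were called higher in the liver and 14.4% higher in the mammary gland. Of 8 other collagens 2 were higher in the liver (COL18A1 by 2.42, COL8A1 by 2.13) and 4 in the mammary gland, among them COL6A1 (−2.77). Of 15 proteoglycans and glycoproteins 2 were higher in the liver and 8 lower, led by LUM (−3.64), a collagen binding proteoglycan, MGP (−2.45) and ELN (−2.17), which encodes elastin. Of 13 enzymes that modify or crosslink collagen 2 were higher in the liver, PLOD3 (1.68) among them, and 3 in the mammary gland, among them P4HA2 (−2.14), a prolyl hydroxylase, and the collagen chaperone SERPINH1 (−1.20).

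Of 9 genes of matrix degradation 1 was higher in the liver, the protease MMP19 (3.11), and 4 in the mammary gland, among them the protease inhibitors TIMP3 (−2.68) and TIMP2 (−1.58). Of 11 genes of the TGF-beta pathway, which drives collagen expression, 3 were higher in the mammary gland, among them CCN2 (−3.05) and TGFB2 (−2.93). Of 8 matrix receptors 1 was higher in the liver and 3 lower, the integrin chain ITGA5 (−2.54) and the collagen receptors DDR1 (−3.63) and DDR2 (−1.83).

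Of the fibroblast and stellate cell markers, 4 of 7 were higher in the mammary gland (THY1 by −3.93, VIM by −2.01, liver minus mammary gland) and 0 in the liver. All 6 myoepithelial markers and 1 of 3 adipocyte markers were higher in the mammary gland, all 6 macrophage markers were higher in the liver, and 0 of 4 endothelial markers were called. The part of the tissues' cell makeup in the differences of the matrix genes was not tested.

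In the treatment comparisons that were tested, no gene of these 6 lists of matrix genes was called. With B12 in the mammary gland 15 of 15 proteoglycans and glycoproteins were above the controls, with a median of 0.15 against 0.01 for all named genes, and 12 of 13 collagen modifying enzymes, with a median of 0.17. With single arrays left out these were 12 to 15 of 15 and 9 to 13 of 13, and without cow 52 the medians were 0.10 and 0.14. On the same arrays 7 of 7 fibroblast and 4 of 4 endothelial markers were above the controls, as given for SPARC. With B9_B12 in the liver, described only, 9 of 9 genes of matrix degradation were above the controls with a median of 0.36, and 12 of 13 collagen modifying enzymes with a median of 0.33, against 0.05 for all named genes. Without cow 32 these were 5 of 9 with a median of 0.10 and 8 of 13 with a median of 0.02. No list as a whole was tested.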

How the data were processed

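Each array held Cy3-labelled RNA of 1 biopsy. The authors deposited the scanner output of Agilent Feature Extraction 10.7.3.1, in which every spot has a median intensity and a background intensity that were not normalized between arrays, a processed signal with the background subtracted, and flags of the image software. The authors also deposited a table of log2 values, which were background corrected and normalized between arrays by them. It was an alternative here, and no comparison columns were used.

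Here the median intensity was corrected by normexp (offset 50), quantile normalized within each tissue (over both tissues for the tissue contrast) and put on the log2 scale. Control and outlier spots were left out and spots of a probe averaged. Of 43653 probes, 53.9% were paired with a current symbol. The arrays of a tissue were fitted together in limma 3.58.1 (R 4.3.3, version 1.17.8 of the data.table package), with Benjamini-Hochberg adjustment over all probes, and a call needed an adjusted p of at most 0.05 and 2-fold. Cyber-T (window 101, confidence 10) was the alternative of the study's methods. Correlations had 100000 permutations. The cow pairs the tissues: deviations of a cow's 2 biopsies from their group means correlated at −0.25 to 0.26 (median 0.04, above 0.1 in 4 of 12 cows), and the cow entered as a block only in an alternative.

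The members, gene lists and tests were chosen with earlier results of these data known. Named genes are the 9 members, each by its brightest probe in the tissue, the member probe with the smallest p of each tested comparison, the 5 genes most correlated with POSTN and LOXL4, and the list genes with the widest tissue differences. Results that rest on the contrasts that chose POSTN and LOXL4 have no test. All but 5 member probes were well above background on all 25 arrays (1 of COL1A2 on 3 of 12 liver and 12 of 13 mammary arrays, 4 of FN1 on 10 to 12 of 13 mammary arrays), and none was saturated. The number of cows limits the precision. Tests were checked on simulated data. Genome positions, probe sequences and the quantitative PCR values were not used here. 1 primer and 1 gene of the lists are not reported here.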

Additional observations from a re-analysis of the deposited data

Results flagged for a closer look

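In 2 of the 18 groups of 4 arrays checked, 1 per gene and tissue in the B12 group, a single cow lay far from the other 3. The cutoff is meant to flag about 1 group in 20 where values are normal and groups independent. Both were mammary values of cow 52, on 1 array. The 2 genes, COL3A1 and COL1A1, vary together over the mammary arrays, so the 2 flags are not independent. COL3A1 measured 12.95 there and 11.46 to 11.55 in the other 3 cows, so that the gap took 0.941 of the range of the group. COL1A1 measured 11.09 there and 9.96 to 10.10 in the other 3, with a gap of 0.875 of the range. The 7 fibroblast and stellate cell markers had a mean level of 9.09 to 9.42 in the mammary arrays of this group, and their part in the values of cow 52 was not tested. In none of the 27 pairs of tissue effects checked did every array of the liver move one way and every array of the mammary gland the other.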

How the results depend on the processing

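The counts of 0 called member probes in the 5 treatment comparisons and in the interaction stayed at 0 under every alternative run, and with each array left out in turn they ranged from 0 to 0. In the interaction they are not read for POSTN and LOXL4. The tissue count was 46 (45 to 46 with single arrays left out), with 17 higher in the liver (17 to 17) and 29 in the mammary gland (28 to 29). With the cow as a fixed replicate block it was 45 (17 and 28), as a random replicate block 46, and the pairing changed no call among the brightest probes. Leaving out both liver arrays of lowest correlation, an alternative added after seeing the data, gave 46. With quantiles within each tissue it was 24, of which 6 were higher in the mammary gland, and COL1A1 (0.82), COL3A1 (0.10) and DCN (0.062) turned and SPARC came to −0.07, under a median of all probes of 0.38. LOX passed 2-fold under the 4 alternatives named for it, and COL1A1 with the mean of all its probes (−1.43).

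The described POSTN difference, 1.27, was 1.69 with an offset of 0, 1.52 with an offset of 16, 1.53 without background correction, 1.77 with the processed signal, 1.46 with quantiles over both tissues, 1.53 in the authors' table, 1.502 with the slide as a block and 0.87 for the mean of its probes. It ranged from 1.20 to 1.38 with single arrays left out, and that of LOXL4 from 1.37 to 1.80.

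Correlations of the brightest probes with COL1A1 that changed sign were LOXL4 as deviations from group means (−0.15 liver, −0.10 mammary gland) and in the liver without cow 57 (range −0.068 to 0.42), SPARC in the liver (−0.0074) and DCN in the mammary gland (−0.12) without the 2 farthest arrays, DCN in the mammary gland without cow 52 (range −0.0017 to 0.71), FN1 in the liver with 75th percentile scaling (0.29), and FN1 (0.077) and DCN (0.80) in the liver with the mean of all probes. Among those of the mean of all probes, liver POSTN (0.60), LOXL4 (−0.11) and LOX (0.096) and mammary POSTN (−0.10) changed sign without the 2 farthest arrays, and liver LOX (0.048) and FN1 (−0.12) and mammary LOXL4 (−0.072) as deviations from group means. Their causes were not tested. With 2 to 4 cows a group, only differences well above the spread between cows could be called.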
